A study of Mus musculus with 16 samples.

Results

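Cadherins and Cadm proteins join cells to their neighbours, and the 7 genes described here are Cdh2, Cdh4, Cdh11 and Cdh13 of the cadherin family and Cadm1, Cadm3 and Cadm4 of the immunoglobulin superfamily. They are 7 of the 22559 genes in the expression table, found by gene name, and they were chosen with their levels in the cell populations known. Their levels are therefore given as a description, without tests. All 7 passed the filter of at least 10 normalized counts (reads divided by the library's size factor) in at least 4 libraries.

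RNA was sequenced from 4 cell populations sorted by flow cytometry from mouse femurs at day 6 after birth, with 4 libraries each and 16 in all. They are periosteal stem cells (PSC), periosteal progenitor populations of type 1 (PP1) and type 2 (PP2), and endosteal mesenchymal stem cells (MSC), which were sorted as negative for the Ctsk-driven membrane GFP. All samples carried the genotype CTSK-cre+ mTMG on a C57/B6 background (written C57/ B6 for PSC), so Cre was driven by the promoter of cathepsin K, which osteoclasts also use. Every sample came from 1 litter on 1 day and none was pooled, per the series' design text. Whether each library is a different mouse is not said, and the p-values below then reflect only the variation among these libraries.

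Ctsk transcript averaged 2751 normalized counts in PSC, against 12340 in PP1, 7393 in PP2 and 2082 in the GFP-negative MSC. Recovered reads per library ran from 22.3 to 48.4 M. Of the 13797 genes tested, 0.43 to 0.54% had no read in an MSC library, 4.49 to 8.28% in PSC, 8.79 to 10.94% in PP1 and 7.84 to 16.44% in PP2. PP2 replicates 1 and 3 stood apart, with 13.57 and 16.44% of tested genes without a read. In bulk samples such as these, fewer cells of a type and less RNA per cell cannot be told apart.

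Classical cadherins span the membrane and bind a cadherin on the next cell in the presence of calcium, while their tails hold catenins that link the junction to actin. Cdh2 (N-cadherin) and Cdh4 (R-cadherin) are type I members, Cdh11 (OB-cadherin) is a type II member known from osteoblasts and other mesenchymal cells, and Cdh13 (T-cadherin) has no tail, is held by a lipid anchor and binds adiponectin. Cadm proteins need no calcium and bind each other or nectins. Their tails hold protein 4.1 and membrane-associated guanylate kinases. In peripheral nerve, Cadm4 on Schwann cells pairs with Cadm3 on axons.

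Cadm3 was highest in PP1 and PP2 and Cadm4 in MSC, and they are the 2 members with a promoter in the RefSeq table used here (GRCm38.p6). The 250 bases before each start follow, 5′ to 3′ on the gene's strand. Cadm3 is at chr1:173367696-173367945 on the minus strand and Cadm4 at chr7:24481773-24482022 on the plus strand. Capitals mark GGGCGG, the GC box, read on either strand.

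Cadm3: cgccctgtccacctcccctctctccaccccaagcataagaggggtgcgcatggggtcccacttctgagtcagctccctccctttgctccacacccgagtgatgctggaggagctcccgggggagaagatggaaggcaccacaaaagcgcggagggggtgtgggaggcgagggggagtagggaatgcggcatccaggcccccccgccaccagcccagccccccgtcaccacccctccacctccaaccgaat

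Cadm4: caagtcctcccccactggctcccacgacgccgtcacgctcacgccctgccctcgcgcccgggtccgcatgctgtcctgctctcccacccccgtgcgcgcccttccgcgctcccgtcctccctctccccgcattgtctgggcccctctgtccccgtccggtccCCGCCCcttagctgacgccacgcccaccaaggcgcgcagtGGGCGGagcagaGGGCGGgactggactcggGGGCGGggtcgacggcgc

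The Cadm4 window held 30 CG dinucleotides and was 75.2% G or C. The Cadm3 window held 11 CG dinucleotides at 66.8% G or C. The medians over 32851 promoters of the same length were 6 CG dinucleotides and 52.4%. GGGCGG occurred 4 times in Cadm4, at -88, -48, -36 and -18 counted from the start to the first base of each match, and was not in the Cadm3 window, and 32.74% of all promoters held it. Neither window held CACCTG (in 17.22% of promoters), CANNTG (66.22%, which includes CACCTG) or TATAAA (12.37%), on either strand. These are matches of letters, not sites shown to be bound.

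The members fell into 2 patterns. Cdh11, Cdh13 and Cadm3 were highest in PP1 and PP2, and Cdh2, Cadm1 and Cadm4 were highest in MSC. Cdh4 was highest in PP2. PSC held the lowest mean of Cdh4, Cdh11, Cdh13 and Cadm3.

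**Figure D1:**
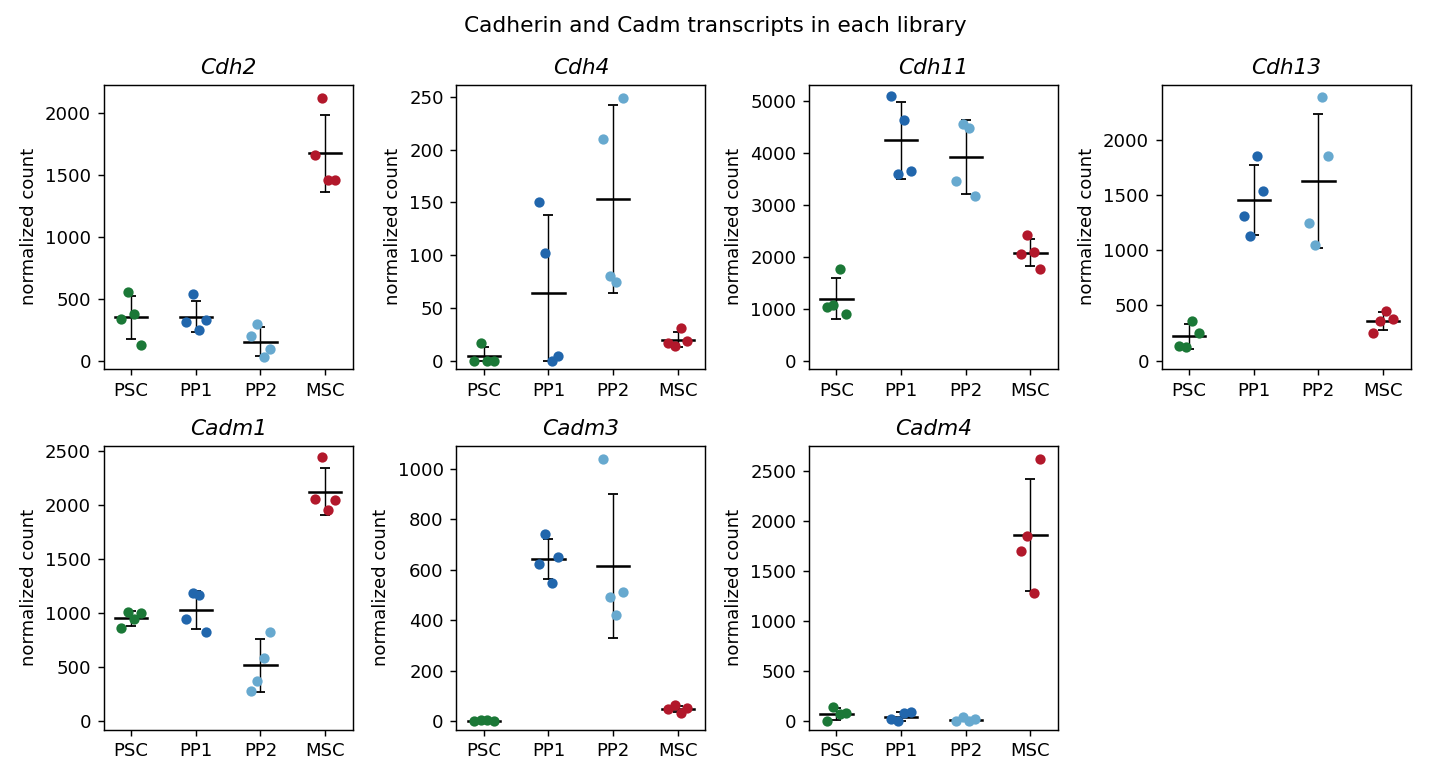
Normalized count of each of the 7 genes (vertical axis, linear, its own scale per panel) in the 4 libraries of each population (points), with the group mean (long bar) and SD (whiskers). Cadm4 lies between 1287 and 2625 in MSC and at or below 146.8 in every other library, while Cadm3 lies between 420.2 and 1039 in PP1 and PP2 and at or below 64.31 elsewhere.

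Among the type I cadherins, Cdh2 (chromosome 18, 16588877 to 16809246, minus strand, GRCm38) read 1655, 2118, 1453 and 1454 normalized counts in MSC replicates 1 to 4. It read 339.3, 553.1, 377.1 and 128.9 in PSC, and 310.1, 536.5, 244.5 and 330.6 in PP1. In PP2 it read 197.8, 297.5, 26.51 and 91.93. Every MSC library was above every other library, and PSC, PP1 and PP2 overlapped. Group means were 1670 ± 313.5 in MSC, 355.4 ± 126.2 in PP1, 349.6 ± 174.2 in PSC and 153.4 ± 119.2 in PP2 (SD, n = 4 each). On the log2(normalized count + 1) scale the difference from MSC was -2.41 for PSC, -2.27 for PP1 and -3.89 for PP2 (SE 0.55 each), the last being -3.22 without PP2 replicate 3.

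Cdh4 (chromosome 2, 179442431 to 179899373, plus strand) was uneven within groups. PP2 read 209.9, 80.32, 74.23 and 249.0 normalized counts, and PP1 read 150.2, 101.9, 0 and 4.202. MSC read 17.16, 13.68, 30.82 and 18.38, and in PSC only replicate 2 had reads, at 17.1. PP2 lay above all PSC and MSC libraries, and PP1 spanned both ranges, with 2 libraries high and 2 near 0. The log2 difference was -6.02 for PSC against PP2 and 2.73 for PP2 against MSC (SE 1.37 each). The former was -7.07 without PSC replicate 2, and -3.74 with a pseudocount of 8 in place of 1.

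The type II cadherin Cdh11 (chromosome 8, 102632095 to 102785642, minus strand) read 5094, 3588, 4634 and 3643 normalized counts in PP1 and 3450, 4553, 4488 and 3164 in PP2. It read 2050, 2415, 2095 and 1768 in MSC and 1036, 1072, 1774 and 895.4 in PSC. PP1 and PP2 overlapped each other and lay above MSC and PSC, and the highest PSC library just exceeded the lowest MSC library. The log2 difference was -1.86 for PSC against PP1, -1.74 for PSC against PP2, 1.02 for PP1 against MSC and 0.90 for PP2 against MSC (SE 0.185 each).

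Cdh13 (chromosome 8, 118283733 to 119324921, plus strand), the tail-less cadherin, was also highest in PP1 and PP2. It read 1307, 1129, 1858 and 1535 normalized counts in PP1 and 1245, 1048, 2386 and 1853 in PP2. It read 247.2, 361.9, 452.9 and 373.5 in MSC and 132.8, 127.7, 362 and 254.3 in PSC. No PP1 or PP2 library reached down to the PSC or MSC range, and PSC and MSC overlapped. The log2 difference was -2.84 for PSC against PP1, -2.96 for PSC against PP2, 2.03 for PP1 against MSC and 2.14 for PP2 against MSC (SE 0.32 each).

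Cadm1 (chromosome 9, 47530173 to 47857637, plus strand) was present in every library. It read 2055, 2444, 1961 and 2047 normalized counts in MSC, 951, 1187, 1167 and 826.4 in PP1 and 863.7, 1016, 945.3 and 1002 in PSC. In PP2 it read 284.7, 374.1, 587.2 and 830.7. MSC lay above the other groups, PSC and PP1 overlapped, and PSC lay above PP2, by 863.7 against 830.7 at the nearest pair of libraries. The log2 difference was -1.15 for PSC against MSC, -1.05 for PP1 against MSC, -2.15 for PP2 against MSC and 1.00 for PSC against PP2 (SE 0.24 each).

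Cadm3 (chromosome 1, 173333258 to 173367695, minus strand) was close to 0 in PSC, with 0, 5.029, 7.039 and 0 normalized counts, or 12 reads in all. PP1 read 623.9, 742.3, 549.2 and 651.3, and PP2 read 1039, 490.8, 420.2 and 513.1. MSC read 49.77, 64.31, 35.1 and 52.93. PP1 and PP2 overlapped, MSC lay below both, and PSC lay below MSC. The ratio of group means was 212.7 for PP1 over PSC and 16.75 for MSC over PSC. The log2 difference was -7.92 for PSC against PP1, -7.77 for PSC against PP2, -4.26 for PSC against MSC and 3.66 for PP1 against MSC (SE 0.67 each). At a pseudocount of 8 the first 3 were -5.93, -5.79 and -2.44. Of the exon bases of Cadm3, 361 (4.98%) are shared with Ackr1 on the same strand, and Ackr1 read at most 65.19 normalized counts in PP2, 33.92 in PP1, 6.85 in MSC and 0 in PSC.

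Cadm4 (chromosome 7, 24482023 to 24504539, plus strand) was highest in MSC. It read 1705, 1850, 1287 and 2625 normalized counts in MSC. It read 2.232, 146.8, 69.39 and 87.1 in PSC and 19.38, 0, 83.81 and 89.65 in PP1. In PP2 only replicates 2 and 4 had reads, at 43.88 and 23.4. MSC stood above all other libraries and the other 3 groups overlapped. The log2 difference from MSC was -5.45 for PSC, -6.51 for PP1 and -8.30 for PP2 (SE 1.49 each). These sizes moved with single libraries. The PSC value was -4.22 without PSC replicate 1 and -6.06 without replicate 2, and the PP1 value was -5.07 without PP1 replicate 2 and -7.20 and -7.23 without replicates 3 and 4. The PP2 value was -7.45 without either PP2 replicate 1 or 3, -9.28 and -8.99 without replicates 2 and 4, and -5.77 without both 1 and 3.

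**Figure D2:**
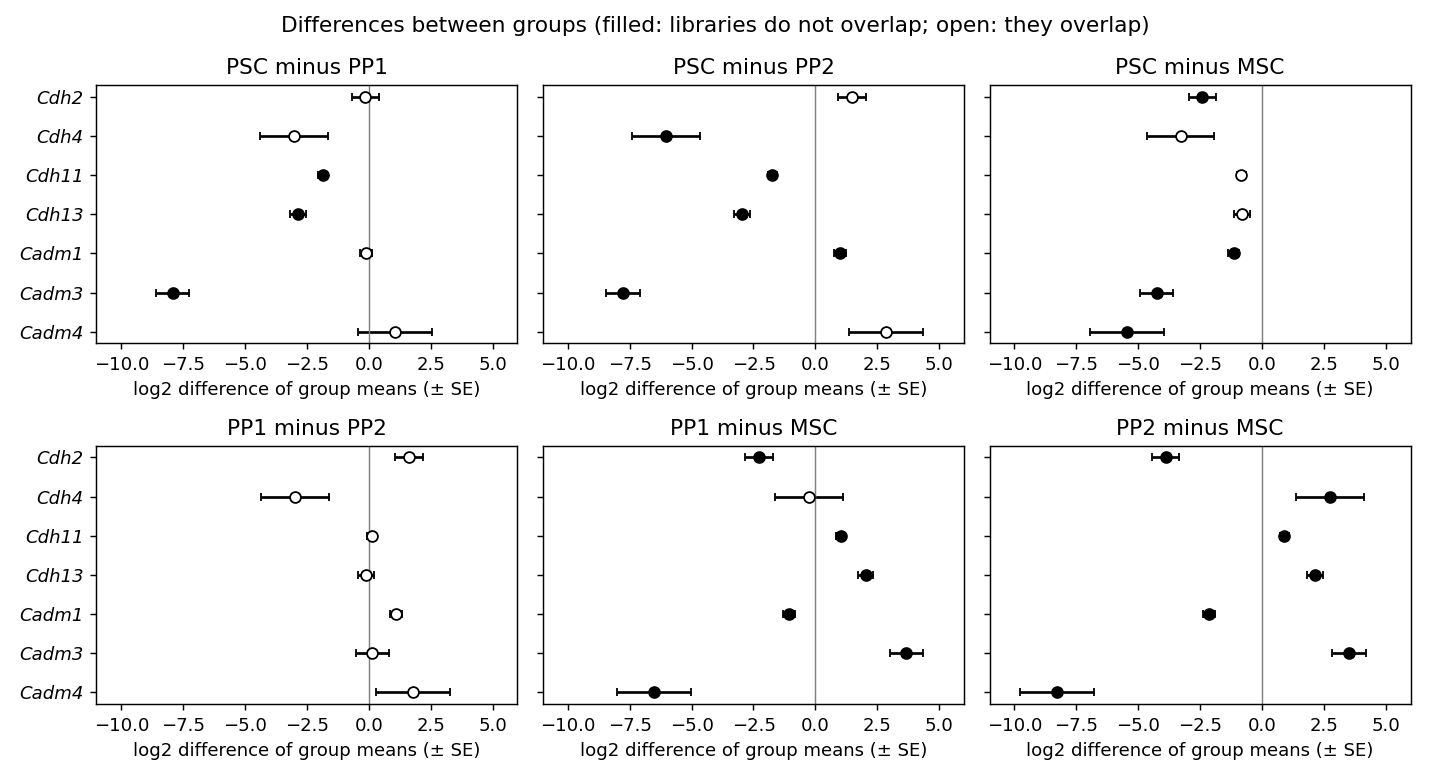
Difference of group means on the log2(normalized count + 1) scale (horizontal axis, point, with SE bars) for the 7 genes in each of the 6 pairs of populations. Filled points are pairs whose libraries do not overlap; in PP1 against PP2 all 7 points are open, and in PP2 against MSC all 7 are filled.

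Counted over the 7 genes, the libraries did not overlap for 3 genes in PSC against PP1, where 28.9% of all tested genes did not, and for 5 in PSC against PP2 (28.5% of all genes). They did not overlap for 4 in PSC against MSC (38.7%), 6 in PP1 against MSC (30.1%) and 7 in PP2 against MSC (30.5%). In PP1 against PP2 the libraries of all 7 overlapped (4.74% of all genes did not overlap). Nothing is read from these counts, since the genes were chosen on these groups, and the comparisons share groups. All non-overlapping members were lower in PSC against PP1 and MSC. In PSC against PP2, Cadm1 was higher in PSC and the other 4 were lower. In PP2 against MSC, Cdh4, Cdh11, Cdh13 and Cadm3 were higher in PP2 and Cdh2, Cadm1 and Cadm4 lower. PP1 against MSC divided in the same way without Cdh4. Without PP2 replicates 1 and 3, the 2 remaining PP2 libraries were both below the PP1 range for Cadm3, and for no other member did the statement on overlap with PP2 change.

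Markers of other cell types moved with both patterns, and their part in the levels of the 7 genes was not tested. The summed level of 9 Schwann cell markers ran from 17920 to 27160 normalized counts in MSC libraries, 7669 to 9534 in PSC, 2332 to 5264 in PP1 and 1888 to 3076 in PP2. Outside MSC the sum was mostly S100b, with means of 6918 of 8694 in PSC, 2472 of 3397 in PP1 and 2286 of 2497 in PP2. In MSC S100b averaged 4231 of 23610. All 9 were lower in PP1 and in PP2 than in MSC, and in PSC 6 were lower and 1 higher than in MSC. Cdh19 is 1 of the 9 and is also a related cadherin given below. Its call in PP2 against MSC (limma adjusted p 0.0466) was lost in 16 alternatives, with p up to 0.164. Over all genes, 12.6% were lower in PP1 than in MSC, 14.7% in PP2 and 14.2% in PSC, and 12.1% were higher in PSC. Foxd3 and Gfra3 had no read in PP1, and Foxd3, Erbb3 and Gfra3 had none in PP2. Foxd3, at 9.202 on average in PSC and 801.5 in MSC, passed the filter only through MSC. The summed level of 7 fibroblast markers ran from 37200 to 56160 in PP1, 41690 to 59670 in PP2, 3758 to 5097 in MSC and 1805 to 2625 in PSC. All 7 were higher in PP1 and in PP2 than in PSC and than in MSC, and Dpp4 had no read in PSC. Over all genes, 15.1% were higher in PP1 and 15.2% in PP2 than in PSC, and 8.88 and 9.28% than in MSC. The 6 osteoclast markers summed to 2768 to 15660 in PP1, 590.2 to 2534 in PP2 and 593.5 to 1547 in PSC. In MSC they summed to 6083 to 7661, mostly Mmp9, with a mean of 6763 of 6991. Of 5 tested, 4 were higher in PP1 than in PSC, 4 than in MSC and 3 than in PP2. Higher in PP1 than in PP2 were 0.478% of all genes. Skeletal muscle markers summed to 3050 to 6130 in PP2, 808.5 to 2285 in PP1, 583 to 718.4 in MSC and 243.3 to 291.7 in PSC, with Myod1 and Pax7 at 0 in PSC, PP1 and PP2. Of the 8 muscle genes 5 were tested, and 4 were lower in PSC than in PP2, as were 15.2% of all genes. Cdh15, a related cadherin given below, is in the muscle sum and was highest in MSC. It averaged 430.4 of 650.1 in MSC and 144.7 of 4586 in PP2. The PP2 sum was mostly Acta1 and Myl1, at 2826 and 925.3.

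The make-up of each family was compared as normalized counts per kb of exon, which allows levels of different genes to be set side by side. Over 23 cadherin genes, Cdh11 held 57.63 ± 5.627% of the summed cadherin level in PP1 and 60.64 ± 5.974% in PP2, but 37.98 ± 4.465% in PSC and 29.0 ± 1.303% in MSC (mean ± SD over 4 libraries). Cdh13 held 15.81% in PP1 and 20.11% in PP2, against 5.647% in PSC and 3.999% in MSC. Cdh2 held 25.58% in MSC and 12.06% in PSC, but 5.501% in PP1 and 2.675% in PP2. Cdh11 had the largest share in all 4 groups, and in MSC Cdh2 came next. The ratio of Cdh2 to Cdh11 per kb ran from 0.766 to 0.968 in MSC libraries, 0.159 to 0.570 in PSC, 0.0583 to 0.165 in PP1 and 0.00652 to 0.0721 in PP2. Cdh4 held at most 5.075% in any library.

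Cadherins other than the 4 members held 44.16 ± 2.507% of the cadherin level per kb in PSC and 41.07 ± 2.333% in MSC, against 19.99 ± 5.458% in PP1 and 13.5 ± 3.627% in PP2. In PSC the largest of these were Cdh19, a type II cadherin of Schwann precursors, at 15.62% and Cdh15 (M-cadherin of muscle) at 10.46%. In MSC they were Cdh15 at 16.56% and Cdh19 at 7.63%. The summed cadherin level was 352.4 ± 97.31 normalized counts per kb in PSC, against 822.7 ± 80.97 in PP1, 721.2 ± 72.59 in PP2 and 804.8 ± 77.0 in MSC.

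Of the 4 Cadm genes, a different member held the largest share in PSC and in MSC. Cadm1 held 71.63 ± 14.82% of the summed Cadm level per kb in PSC, against 46.62 ± 6.818% in PP1, 35.23 ± 15.98% in PP2 and 19.53 ± 4.161% in MSC. Cadm3 held 41.94 ± 6.224% in PP1 and 57.59 ± 18.24% in PP2, against 0.2855% in PSC and 0.6517% in MSC. Cadm4 held 79.01 ± 4.515% in MSC, while its share was 23.5% in PSC, 10.26% in PP1 and 5.613% in PP2. PP1 was thus split between Cadm1 and Cadm3, and MSC was mostly Cadm4. The sum was 1083 ± 262.1 normalized counts per kb in MSC, 212.2 ± 15.98 in PP1, 144.8 ± 28.5 in PP2 and 133.2 ± 34.54 in PSC. The fourth gene, Cadm2, held 4.586% in PSC and at most 1.565% on average elsewhere.

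**Figure D3:**
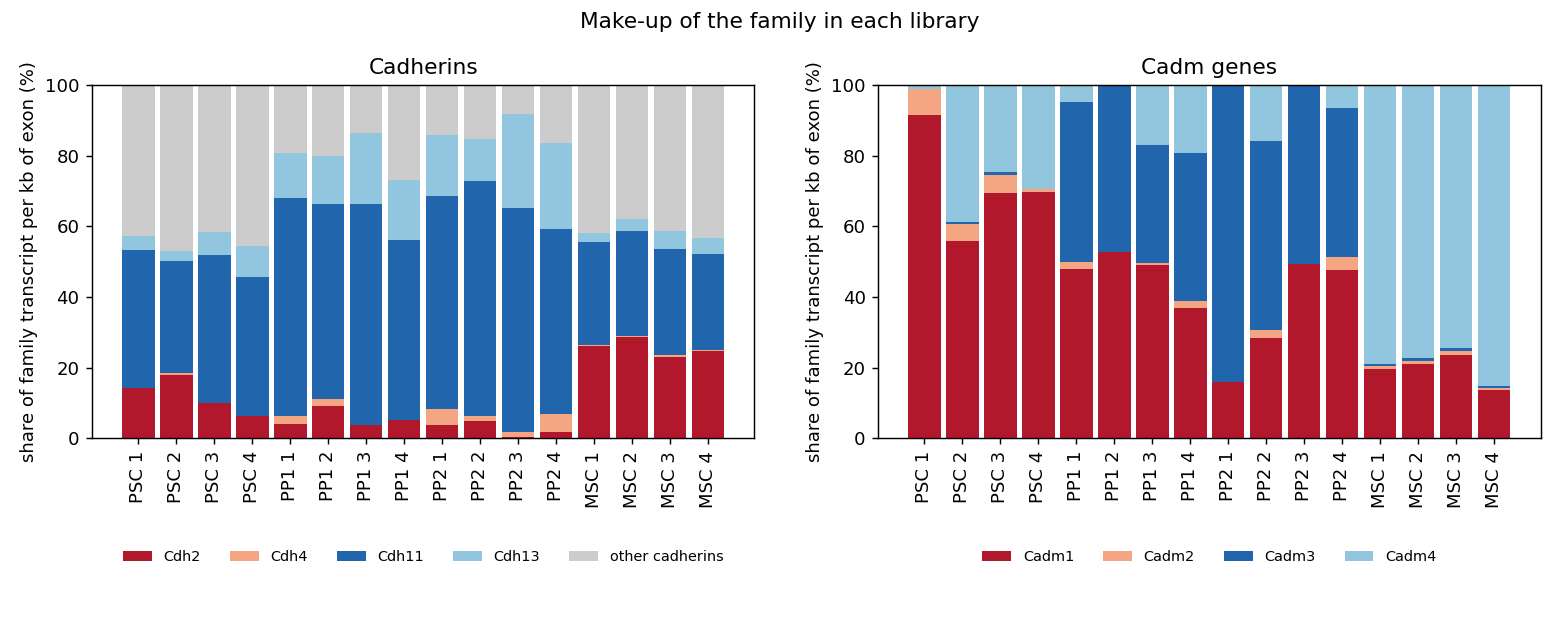
Share (%) of the summed level per kb of exon held by each cadherin (left) and Cadm gene (right) in each of the 16 libraries, as stacked bars that add to 100. Cadm4 fills 74.6 to 85.22% of the Cadm bar in the MSC libraries, and Cdh11 fills 50.88 to 66.45% of the cadherin bar in PP1 and PP2.

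Likeness was measured as Pearson's r over the 16 libraries on the log2 scale, among 13124 genes. The libraries fall into 4 groups, so r mostly restates which groups a gene is high in, and it is a description. Cdh11 was most like Pdgfra, a growth factor receptor (r = 0.966, and 1 of the 7 fibroblast markers), Scarf2 (0.966) and Mxra8 (0.965). Cdh13 was most like Fam129a (0.984), Rhoj (0.982) and Thbs4, a thrombospondin (0.982). Cadm3 was most like Adamts7 (0.976), Dpysl3 (0.968) and Fbln2, an extracellular matrix fibulin (0.966). These 3 members also resembled each other, with r of 0.948 for Cdh11 and Cadm3, 0.912 for Cdh11 and Cdh13 and 0.89 for Cdh13 and Cadm3.

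Cdh2 was most like Plekhb1 (r = 0.886), Mbp, the gene of myelin basic protein (0.886 and 1 of the 9 Schwann markers), and Prx, the gene of periaxin (0.882). Cadm4 was most like Gatm (0.942), Pou3f1, which encodes a POU transcription factor (0.925), and Fa2h, a fatty acid hydroxylase (0.886). Cadm1 was most like Megf9 (0.913), Smarca4 (0.913) and Cep250 (0.898), and Cdh4 was most like Tmod1 (0.923), Large (0.91) and Steap4 (0.887). Among the MSC-high members r was 0.744 for Cadm1 and Cadm4, 0.724 for Cdh2 and Cadm4 and 0.708 for Cdh2 and Cadm1.

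The genes that work with these 7 were tested, in 11 lists of 113 genes, of which 93 passed the filter. Of the rest 17 were below it, 2 had no read and 1 was not in the table. The test was limma on log2(normalized count + 1), with Benjamini-Hochberg adjustment over all 13797 genes and a threshold of 0.05. In PSC against PP1, 37 of the 93 passed (39.8%, against 31.2% of all genes), 10 higher and 27 lower in PSC (16.1 and 15.1% of all genes). In PSC against PP2, 36 passed (38.7%, against 32.8%), 11 higher and 25 lower in PSC (17.6 and 15.2%). In PSC against MSC, 45 passed (48.4%, against 26.3%), 6 higher and 39 lower in PSC (12.1 and 14.2%). PP1 against MSC gave 35 (37.6%, against 21.4%), 9 higher and 26 lower in PP1 (8.88 and 12.6%). PP2 against MSC gave 44 (47.3%, against 24.0%), 11 higher and 33 lower in PP2 (9.28 and 14.7%). Calls against MSC were therefore mostly of genes higher in MSC.

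The median log2 difference of the 93 genes was -1.36 in PSC against MSC, -0.67 in PP1 against MSC and -0.90 in PP2 against MSC, where all genes had medians of -0.18, -0.18 and -0.195. The filter bears on this, since 11 of the 93 reached 10 normalized counts in 4 libraries only through MSC (Cdh1, Cdh6, Cdh10, Celsr1, Ctnna3, Ctnnd2, Pvrl4, Cd96, Pkp3, Ncam2 and Chl1). Among the other 82, the calls were 7 higher and 27 lower in PSC against PP1, 8 and 25 in PSC against PP2, 6 higher and 32 lower in PSC against MSC, 9 and 16 in PP1 against MSC, and 11 and 23 in PP2 against MSC. Without MSC replicate 1, the PP2 against MSC count of 44 became 29. The calls over all genes in that comparison fell as well, from 3307 to 2326.

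**Figure D4:**
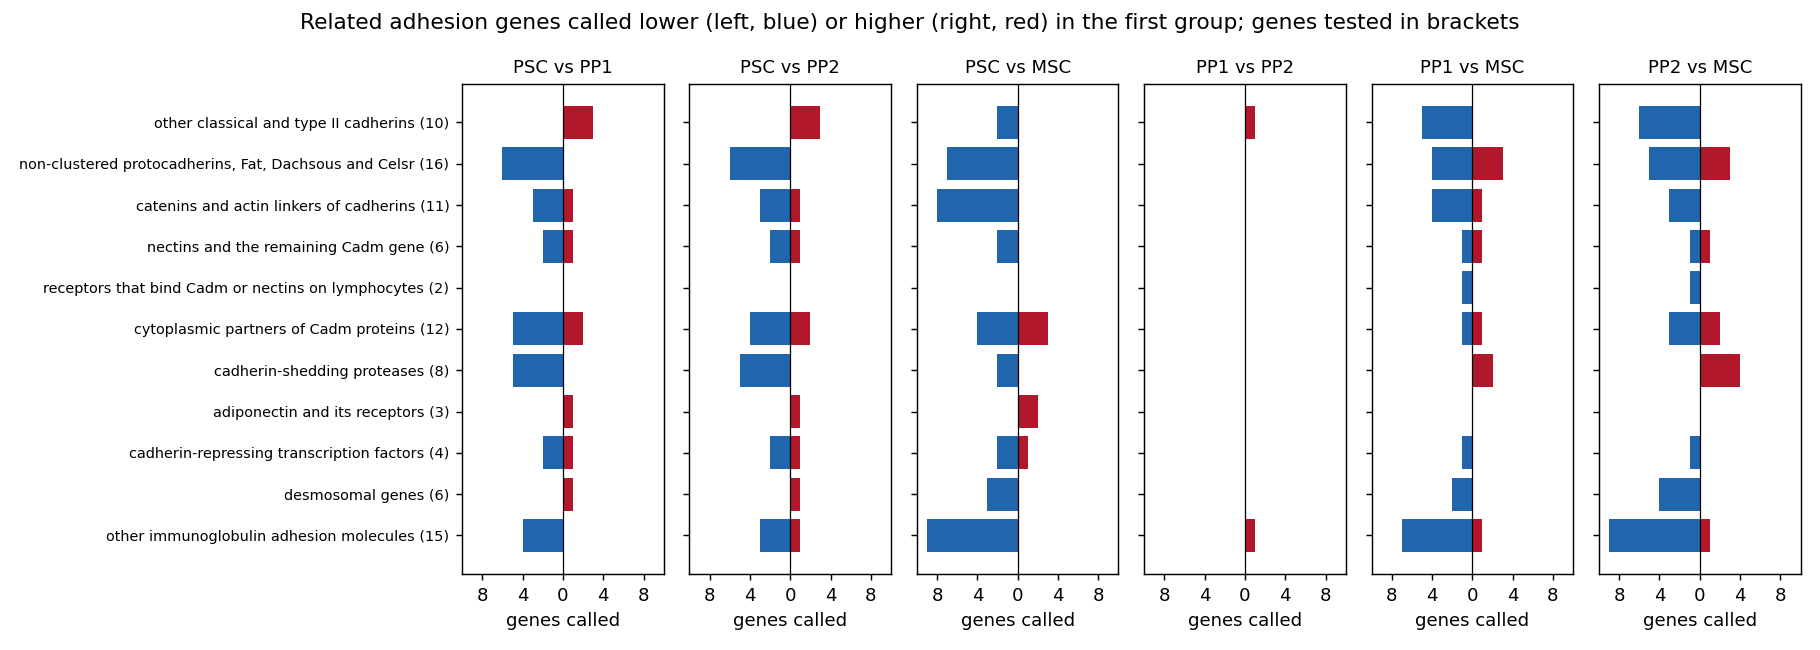
Number of genes in each of the 11 lists that passed an adjusted p of 0.05 (limma) in each pair of populations, lower in the first population to the left and higher to the right, with the genes tested in brackets. Shedding proteases are all to the left in PSC against PP1 and PP2 (5 of 8 each, where 31.2 and 32.8% of all genes passed). PP1 against PP2 has 2 calls in all, where 0.834% of all genes passed.

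Among the other classical and type II cadherins (10 tested), 3 were higher and 0 lower in PSC than in PP1, and likewise in PSC than in PP2. That is 30.0% in both, against 31.2 and 32.8% of all genes. Of the 10, Cdh1, Cdh6 and Cdh10 passed the filter only through MSC. Cdh1 (E-cadherin of epithelia) had no read in PP1 or PP2. It read 1.116, 70.4, 275.5 and 20.91 normalized counts in PSC, and 223.1, 209.3, 170.4 and 108.8 in MSC. PSC spread widely, while PP1 and PP2 were at 0 throughout. Against a floor of 3 reads per library, PSC was at least 26.45-fold higher than PP1 and at least 30.63-fold higher than PP2 (limma adjusted p 0.00218 and 0.00209), and MSC was at least 51.15-fold and 59.24-fold higher. The PSC bounds rest on replicate 3: without it they were 8.857 and 10.26. In PSC replicate 1 Cdh1 had a single read. Cdh19 read 226.2 ± 35.31 in PSC and 259.6 ± 43.49 in MSC, against 9.422 ± 11.72 in PP1 and 54.53 ± 13.21 in PP2. The log2 difference between PSC and PP1 was 5.42 ± 0.80 (SE, limma adjusted p 2.92e-05).

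Cdh5 (VE-cadherin of endothelium) read 0, 0, 33.14 and 0.8357 normalized counts in PP2 and 373.1, 37.43, 73.95 and 390.8 in PP1. PP2 lay below all PP1 libraries. It was 1 of the 2 related genes that passed between PP1 and PP2 (2.15%, against 0.834% of all genes), both higher in PP1 (0.478% of all genes were higher and 0.355% lower), with a log2 difference of 5.67 ± 1.04 (limma adjusted p 0.00923). The call was lost in edgeR and in a fit of the 8 libraries alone (adjusted p between 0.0803 and 0.347). Between PP1 and PP2 the 93 related genes gave 0 calls in edgeR, 7 in DESeq2 and 4 without PP1 replicate 3. The other was F11r, a junctional adhesion molecule named here as the second call and outside the naming rule, at 137.1 in PP1 and 13.35 in PP2 (adjusted p 0.0129). The 8 endothelial markers, Cdh5 among them, summed to 98.09 to 522.1 in PP2 and 199.2 to 1437 in PP1, 2 of 8 were higher in PP1 than in PP2, and Emcn had no read in PP2. Their part in the Cdh5 difference was not tested.

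The non-clustered protocadherin, Fat, Dachsous and Celsr genes (16 tested) had 6 lower and 0 higher in PSC than in PP1, and the same counts against PP2. That is 37.5% in both, against 31.2 and 32.8% of all genes (15.1 and 15.2% lower in PSC). The ligand and receptor pair Dchs1 and Fat4 were both among them. Fat4 read 110.7 ± 38.69 normalized counts in PSC, against 843.1 ± 171.7 in PP1, 909.1 ± 245.3 in PP2 and 464.1 ± 127.9 in MSC. Dchs1 read 1172 ± 325.8 in PSC, against 3059 ± 334.2 in PP1, 4740 ± 1169 in PP2 and 2123 ± 430.7 in MSC. Both were lower in PSC than in each other group, with log2 differences of -2.96 ± 0.29 and -1.41 ± 0.18 against PP1 (limma adjusted p 2.1e-07 and 7.61e-06). Their higher level in PP1 than in MSC (adjusted p 0.0373 for Fat4 and 0.0436 for Dchs1) was lost in 5 and 8 of the alternatives, with p up to 0.133 and 0.114. Celsr1 had no read in PSC, PP1 or PP2 and 124.0 ± 34.31 in MSC, at least 38.55-fold higher than in PSC. It passed the filter only through MSC, so no test is given for it.

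Of the catenins and actin linkers (11 tested), 1 was higher and 3 were lower in PSC than in PP1 (36.4%, against 31.2% of all genes). In PSC against MSC, 8 were lower and 0 higher (72.7%, against 26.3%). Among those 8, Ctnna3 and Ctnnd2 passed the filter only through MSC. The higher gene was Ctnnb1, which encodes beta-catenin, at 24660 ± 1427 normalized counts in PSC, against 18230 ± 1026 in PP1, 17740 ± 1215 in PP2 and 23870 ± 961.2 in MSC. That is a log2 difference of 0.44 ± 0.08 (SE, limma adjusted p 0.000366 against PP1). Jup, which encodes plakoglobin, and Lima1, an actin linker, were lower in PSC than in each of the other groups. Jup averaged 319.0 in PSC, against 699.9 in PP1, 1075 in PP2 and 841.8 in MSC. Lima1 averaged 198.2 in PSC, against 1098 in PP1, 625.6 in PP2 and 540.1 in MSC, a log2 difference from PP1 of -2.46 ± 0.27 (limma adjusted p 8.44e-07).

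Nectins, the immunoglobulin partners of Cadm proteins, differed among themselves. Pvrl1 and Pvrl2 (nectin 1 and 2) were lower in PSC than in each other group, and Pvrl4 (nectin 4), which passed the filter only through MSC, had no read in PP1 or PP2. Pvrl1 had reads in PSC only in replicate 2, at 64.37 normalized counts, against 184.3 ± 69.35 in PP1. Its calls against PP2 and MSC were lost in edgeR (adjusted p 0.0814 and 0.0857). Pvrl4 read 15.62 ± 10.06 in PSC and 39.85 ± 3.26 in MSC, at least 4.491-fold higher in PSC than in PP1 (limma adjusted p 0.00433). Pvrl2 averaged 90.73 in PSC against 219.1 in PP1, and that call (limma adjusted p 0.0268) was lost in 6 alternatives, with p up to 0.0954. Of the lymphocyte receptors that bind Cadm or nectins, 2 were tested. Cd96, which passed the filter only through MSC, read 17.33 in MSC on average and had no read in PP1.

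Among 12 tested cytoplasmic partners of Cadm proteins, 2 were higher and 5 lower in PSC than in PP1, and 2 and 4 in PSC than in PP2. The 2 higher genes were Mpp6, a guanylate kinase scaffold, and Lin7c, a PDZ protein that joins such scaffolds. Mpp6 read 2582, 3537, 3156 and 3240 normalized counts in PSC, with a group mean of 825.9 in PP1, 784.7 in PP2 and 1096 in MSC. Every PSC library was above every other library. The log2 difference was 1.92 ± 0.15 against PP1, 2.00 ± 0.15 against PP2 and 1.51 ± 0.15 against MSC (limma adjusted p 1.1e-08, 5.71e-09 and 1.37e-06). Lin7c averaged 4360 ± 1060 in PSC, against 1643 ± 89.34 in PP1, 1518 ± 262.6 in PP2 and 2490 ± 178.1 in MSC. Epb4.1l2, of the protein 4.1 family, went the other way, at 980.7 in PSC against 1669 in PP1 and 1880 in PP2 (adjusted p 0.00157 and 0.000292).

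Proteases that cut cadherins from the surface had 5 of 8 lower and 0 higher in PSC than in PP1, and the same counts against PP2. That is 62.5% in both, against 31.2 and 32.8% of all genes (15.1 and 15.2% lower in PSC). Adam10, the main sheddase of Cdh1 and Cdh2, read 566.9 ± 59.96 normalized counts in PSC, against 939.3 ± 126.1 in PP1, 1295 ± 319.0 in PP2 and 1168 ± 119.5 in MSC. The log2 difference from PP1 was -0.72 ± 0.17 (limma adjusted p 0.00258). Adam9 averaged 562.2 in PSC, against 978.8 in PP1, 1460 in PP2 and 852.9 in MSC. Its call between PSC and MSC (adjusted p 0.0343) was lost in 6 alternatives, with p up to 0.128. Aph1a, a subunit of gamma-secretase, averaged 7927 in PSC and 9689 in PP1, and that call (adjusted p 0.016) was lost in edgeR and without PSC replicate 2, with p up to 0.0643. Of adiponectin and its receptors, Adipor1 and Adipor2 were higher in PSC than in MSC, at 9356 against 6797 and 1860 against 1281 (limma adjusted p 0.00172 and 0.00792).

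The 4 transcription factors known to repress Cdh1 did not move together. Snai1 read 8246, 5732, 5055 and 4527 normalized counts in PSC, above every other library. Group means were 1449 ± 340 in PP1, 1247 ± 264.1 in PP2 and 3022 ± 437.1 in MSC. Its log2 difference was 2.02 ± 0.20 against PP1, 2.23 ± 0.20 against PP2 and 0.94 ± 0.20 against MSC (limma adjusted p 2.64e-07, 7.05e-08 and 0.00217). Zeb1 and Zeb2 were lower in PSC than in each other group. Zeb2 averaged 52.35 in PSC, against 266.6 in PP1, 362.4 in PP2 and 552.8 in MSC. Zeb1 averaged 219.0 in PSC, against 710.2 in PP1, 532.9 in PP2 and 508.1 in MSC, and its calls against PP2 and MSC were lost in 5 and 2 alternatives, with p up to 0.122 and 0.0704.

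Desmosomal genes (6 tested) were lower in PP2 than in MSC for 4 genes and higher for 0 (66.7%, against 24.0% of all genes). Dsp, which encodes desmoplakin, read 418.8, 265.4, 323.6 and 149.2 normalized counts in MSC, 47.99, 47.27, 55.31 and 8.13 in PSC and 0, 17.67, 21.69 and 0 in PP1, and had no read in PP2. MSC was at least 96.33-fold above PP2 and PSC at least 13.21-fold (limma adjusted p 1.97e-05 and 0.00119). The smaller PSC differences, against PP1 (adjusted p 0.0496) and MSC (0.0443), were lost in 18 and 11 alternatives. Pkp3, which encodes a plakophilin, read 62.76 ± 9.053 in MSC and had reads in 1 library of PSC, 1 of PP2 and 0 of PP1. It passed the filter only through MSC, so no test is given for it. Dsc3, a desmosomal cadherin, averaged 166.0 in MSC and 8.527 in PP2 (adjusted p 0.0215), which was lost in 7 alternatives, with p up to 0.225.

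Of 15 other immunoglobulin adhesion molecules, 9 were lower and 0 higher in PSC than in MSC (60.0%, against 26.3% of all genes). In PP2 against MSC, 9 were lower and 1 higher (66.7%, against 24.0%). Of the 15, Ncam2 and Chl1 passed the filter only through MSC. The 1 higher was Vcam1, a ligand of leukocyte integrins, at 1355 ± 148.6 normalized counts in PP2 and 1325 ± 262.1 in PP1 against 460.0 ± 179 in PSC and 457.9 ± 154.8 in MSC. Its log2 difference between PP1 and PSC was as large as that between PP1 and MSC, at 1.58 ± 0.25 (limma adjusted p 7.25e-05 and 0.000168). Mcam (CD146) was highest in MSC, at 1648 ± 170.2 in MSC, 474.8 ± 109.8 in PP1, 251.6 ± 67.64 in PP2 and 201.6 ± 11.61 in PSC, with a log2 difference of -3.02 ± 0.23 for PSC against MSC (limma adjusted p 6.5e-08). Chl1, a neural adhesion molecule, read 132.0 ± 12.13 in MSC and had no read in PSC or PP2, at least 41.04-fold higher than in PSC. It passed the filter only through MSC, so no test is given for it. Several marker sums were highest in MSC, as Mcam and Chl1 were. Besides the Schwann sums given above, 6 pericyte and smooth muscle markers summed to 31610 to 42520 in MSC, with at most 23420 in any other library. Most of that sum was Cspg4, with a mean of 26770 of 37850 in MSC. Against MSC, 5 of the 6 were lower in PSC, 1 was lower in PP1, and 4 were lower and 1 higher in PP2. Rgs5 averaged 1854 in PP2 and 849.4 in PP1, against 462.3 in MSC. The 6 chondrocyte markers summed to 5646000 to 8409000 in MSC and at most 4750000 elsewhere, and all 6 were lower in PP1 and in PP2 than in MSC. That sum was mostly Col2a1, with a mean of 6125000 of 6715000 in MSC. In PSC against MSC, 2 of the 6 were higher and 1 lower in PSC. Matn3 averaged 203100 in PSC and 85120 in MSC, and Hapln1 308200 and 98260. The 4 articular surface markers summed to 44860 to 95020 in MSC and at most 28930 elsewhere, and all 4 were lower in PSC than in MSC. In PP1 and in PP2, 2 of the 4 were lower and 0 higher than in MSC. Over all genes, 14.2% were lower in PSC than in MSC, 12.6% in PP1 and 14.7% in PP2. The shares higher than in MSC were 12.1% in PSC, 8.88% in PP1 and 9.28% in PP2. The part of these markers in these differences was not tested.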

How the data were processed

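RNA was sequenced from 16 libraries, 4 per population, on a HiSeq4000 after TruSeq RNA preparation, per the labels' protocols. Build mm10 and the tools TopHat2 2.0.11, HTSeq 0.6.1, DESeq2 1.6.3, cutadapt and bcl2fastq 2.17 are listed in the submitters' processing notes. The sources used here give neither the annotation nor a strand setting. For 22559 genes the authors deposited signal values, which are whole read counts divided by 1 size factor per library: 100% of values were whole multiples of the library's step, within a tolerance of 1e-06. They are called normalized counts here. Recovered reads ran from 22.3 to 48.4 M per library. No column was left out, and no pair of replicates agreed within sampling noise (lowest chi-square per degree of freedom 26.9).

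Genes with at least 10 normalized counts in at least 4 libraries were kept (13797). In R 4.3.3, limma 3.58.1 modelled log2(normalized count + 1) on group alone over the 16 libraries, with a trend of variance on mean level. Tests were two-sided and adjusted by Benjamini-Hochberg within each of 6 comparisons, at 0.05. The procedure was tested on simulated data. Differences carry the SE of the fit. A fold against a group without reads is a lower bound from a floor of 3 reads per library, which covers counting error only; fold changes of low genes on this scale depend on the pseudocount and can lie below or above the ratio of group means. Levels per kb used exon lengths of GENCODE M21, which held 21829 of the identifiers.

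The 7 genes, the 11 lists of related genes and the marker lists were chosen with earlier results of these data known. From each list up to 3 genes with the smallest adjusted p were named, and for each of the 7 genes the 3 most alike. Pvrl and Epb4.1 are older symbols of nectin and Epb41 genes, as the table gives them. Alternatives were pseudocounts of 0.5 and 8, no filter, at least 50 in 4 libraries, TMM rescaling, edgeR 4.0.16 and DESeq2 1.42.0 on recovered reads, a replicate block, a fit of the 8 libraries compared, each library left out in turn, and, added after seeing the data, PP2 without replicates 1 and 3.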

Additional observations from a re-analysis of the deposited data

Results flagged for a closer look

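In 15 of 148 groups of 4 libraries, 1 library lay far from the other 3 by Dixon's gap over range. Chance flags about 1 in 20 where values are normally distributed. A group with reads in 1 library only is always flagged, and a group without reads never, so the rates cannot be set side by side. Among the 7 genes the flagged groups were Cdh4 in PSC, where replicate 2 read 17.1 normalized counts and the others had no read, and Cadm3 in PP2. There replicate 1 read 1039 and the others 420.2 to 513.1.

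Among related genes, a high library stood apart for Cdh5 in PP2 (replicate 3, 33.14), Pvrl1 in PSC (replicate 2, 64.37), Cd96 in PP2 (replicate 4, 9.193) and Mpp6 in PP2 (replicate 3, 982.2). The same held for Zeb1 in PP2 (replicate 1, 1088), Adam9 in PP1 (replicate 1, 1139), Vcam1 in PP1 (replicate 2, 1718) and Chl1 in PP1 (replicate 1, 29.08). Pkp3 stood apart in PSC (replicate 4, 19.74) and in PP2 (replicate 4, 4.179). A low library stood apart for Adipor1 in MSC (replicate 1, 6136), Dsc3 in MSC (replicate 4, 85.28) and Dsp in PSC (replicate 4, 8.13). Of the 15, 6 were in PP2.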

How the results depend on the processing

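Counts of related genes called ranged, with each library left out in turn, over 32 to 39 in PSC against PP1, 33 to 37 in PSC against PP2, 30 to 46 in PSC against MSC, 2 to 4 in PP1 against PP2, 24 to 38 in PP1 against MSC and 29 to 46 in PP2 against MSC. The lowest PP2 against MSC count came without MSC replicate 1, where calls over all genes fell from 3307 to 2326. Under the other alternatives they ranged over 29 to 42, 29 to 39, 32 to 58, 0 to 7, 31 to 43 and 33 to 48. The 2 calls between PP1 and PP2 became 0 in edgeR, 7 in DESeq2, 4 with the replicate block, 0 in a fit of the 8 libraries and 1 without PP2 replicates 1 and 3. Over all genes that comparison had 115 calls, against 412 in DESeq2, 227 with the replicate block and 28 in the 8-library fit. The main fit did not pair libraries by number. With group means removed, same-numbered libraries of different groups correlated at -0.018 to 0.149 (median 0.033, 2 of 24 pairs over 0.1). Other-numbered pairs ran from -0.092 to 0.053 (median -0.015), and 15 of 16 libraries correlated best with their own number. Whether same-numbered libraries share a mouse or a sort was not tested, and the p-values of the main fit ignore any such link. For the 7 genes, 1085 of 1092 values moved by less than the residual SD and none that was called apart reversed. Of the exceptions 4 were at a pseudocount of 8. They were Cdh4 in PSC against PP2 (-3.74) and Cadm3 in PSC against PP1, PP2 and MSC (-5.93, -5.79 and -2.44). The other 3 were for Cadm4 without PP2 replicates 1 and 3. They were 0.33 for PSC against PP2, -0.73 for PP1 against PP2 and -5.77 for PP2 against MSC. In the main fit these were 2.85, 1.79 and -8.30. The Cadm4 difference of PP1 against PP2 thus changed sign, and its libraries overlapped in both fits. Of 4641 values of named related genes 131 lost and 42 gained a call and none reversed; the cause was not tested. Depth limits genes near 0 reads, such as Cdh4, Cadm3 in PSC and Cadm4 outside MSC.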
